A study of Mus musculus with 12 samples.

Results

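Chromatin remodelling and modifying enzymes were followed through 4 stages of mouse sperm formation. The members were all probe sets on the Affymetrix arrays U74Av2, U74Bv2 and U74Cv2 whose single annotated gene symbol starts with Smarc, Baz, Kdm, Hdac, Dnmt, Ezh, Setd, Suv, Cbx or Prmt, or with Chd, Kat, Brd or Sirt followed by a digit. This gave 218 of 36701 probe sets and 98 of 15964 named genes. The cell types were type A and type B spermatogonia, spermatocytes at pachytene and round spermatids, each isolated and hybridised as total RNA to 1 array of every design, 12 arrays in all. The labels give the cells no genotype, strain, age or treatment and no isolation method. A gene's values are those of its brightest probe set on average, and by this choice 38 members were read on U74Av2, 39 on U74Bv2 and 21 on U74Cv2.

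Chromatin enzymes act in 3 ways. Remodellers of the SWI/SNF, ISWI and CHD families spend ATP to slide or evict nucleosomes. Writers and erasers place and remove methyl or acetyl groups on histones and methyl groups on DNA, and readers with bromodomains or chromodomains bind the marked histones. In the testis, spermatogonia divide by mitosis, pachytene spermatocytes pair and recombine their chromosomes and silence the sex chromosomes, and round spermatids begin the course that ends with histones replaced by protamines.

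Values are MAS5 signals in arbitrary units, scaled so that the arrays of a design share a trimmed mean. A signal under a floor of about 50.01 units was treated as being at the floor. Where the lower of the cell types compared is at the floor, the fold is a lower bound and carries the words at least, and where both are, none is given. With single arrays there is no replicate error and no test, and the precision is limited by the number of arrays. Control probe sets that sit on all 3 designs give a technical spread. The SD of their log2 ratios between designs was 0.26 in type B over type A (30 probe sets), 0.23 in pachytene over type B (31) and 0.44 in round spermatids over pachytene (29). The highest negative control of an array lay between 12.9 and 69.1 units, except on the type B U74Cv2 array, where it was 103.5, and signals near or under that of their own array are not firm. Probe sets differ in brightness, so signals are compared across cell types and never across genes. Fewer cells of a type and less RNA per cell cannot be told apart in these bulk samples.

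The labels were set against marker genes. All 9 spermatogonial markers were over the floor in type A and 8 in type B, with a summed signal of 4612 units in type A, 3454 in type B, 586.6 in pachytene and 1268 in round spermatids. The 8 pachytene markers on the arrays summed to 1081 units in type A, 872.2 in type B, 26579 in pachytene and 31978 in round spermatids. Most of the pachytene sum came from Hspa2 (12268 units) and Ldhc (8691). Sycp1 and Sycp3, which build the synaptonemal complex of meiosis, did not follow it. Sycp1 read 368 units in type A, 319 in type B, 220.0 in pachytene and 454 in round spermatids, and Sycp3 exceeded the floor in pachytene alone, at 60.4 units. The 9 round spermatid markers summed to 310.6 units in type A, 372.9 in type B, 2754 in pachytene and 36778 in round spermatids. Most of the round spermatid sum came from Prm1 (14320 units) and Tnp2 (10430.5). Crem read 90.6 units in pachytene and 58.9 in round spermatids, where Prm2 read 67.3. Spaca1 was under the floor in round spermatids (20.5 units) and read 57.7 in type A and 60.4 in type B. Markers of somatic cells were also present. The 9 fibroblast and matrix markers summed to 7009 units in type A, 13664 in type B, 723.9 in pachytene and 811.1 in round spermatids. Col1a1, a collagen gene, read 4.8 units in pachytene and 2054 in type B. Fibroblast signal thus lay mainly in both spermatogonial samples. The 7 peritubular myoid markers summed to 3143 units in type A, 4607 in type B, 776.2 in pachytene and 1923 in round spermatids. Most of the last sum came from Actg2, at 1519 units, against 223.9 in pachytene. No other myoid marker read higher in round spermatids than in pachytene. The 12 Sertoli markers summed to 8015 units in type A, 6707 in type B, 4162 in pachytene and 1773 in round spermatids. Cst12 and Fshr did not fall with that sum, at 356 and 144 units in type A and 659 and 183 in round spermatids. The 5 Leydig markers on the arrays summed to 392.8 units in type A, 681 in type B, 662.9 in pachytene and 182.4 in round spermatids.

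Most members were measured, and most read highest in a spermatogonial type. Of the 98 genes, 62 were over the floor in all 4 cell types, 32 in 1 to 3 of them and 4 in none (Cbx7, Kdm1b, Prmt5 and Setd3). Over all genes, 49.6% were over the floor in all 4 cell types and 81.5% in at least 1. The number of members over the floor was 92 in type A, 88 in type B, 74 in pachytene and 71 in round spermatids. Of the 94 members over the floor in some cell type, type A held the highest signal of 44 (46.8%), type B of 20 (21.3%), pachytene of 20 (21.3%) and round spermatids of 10 (10.6%). The shares over the 13003 genes measured likewise were 28.7%, 29.9%, 20.1% and 21.3%. Round spermatids held the lowest signal of 43 members (45.7%), against 28.9% of genes, and 17 members had their lowest signal at the floor in several cell types. The median member signal was 255.1 units in type A, 222.1 in type B, 183.1 in pachytene and 126.4 in round spermatids.

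**Figure D1:**
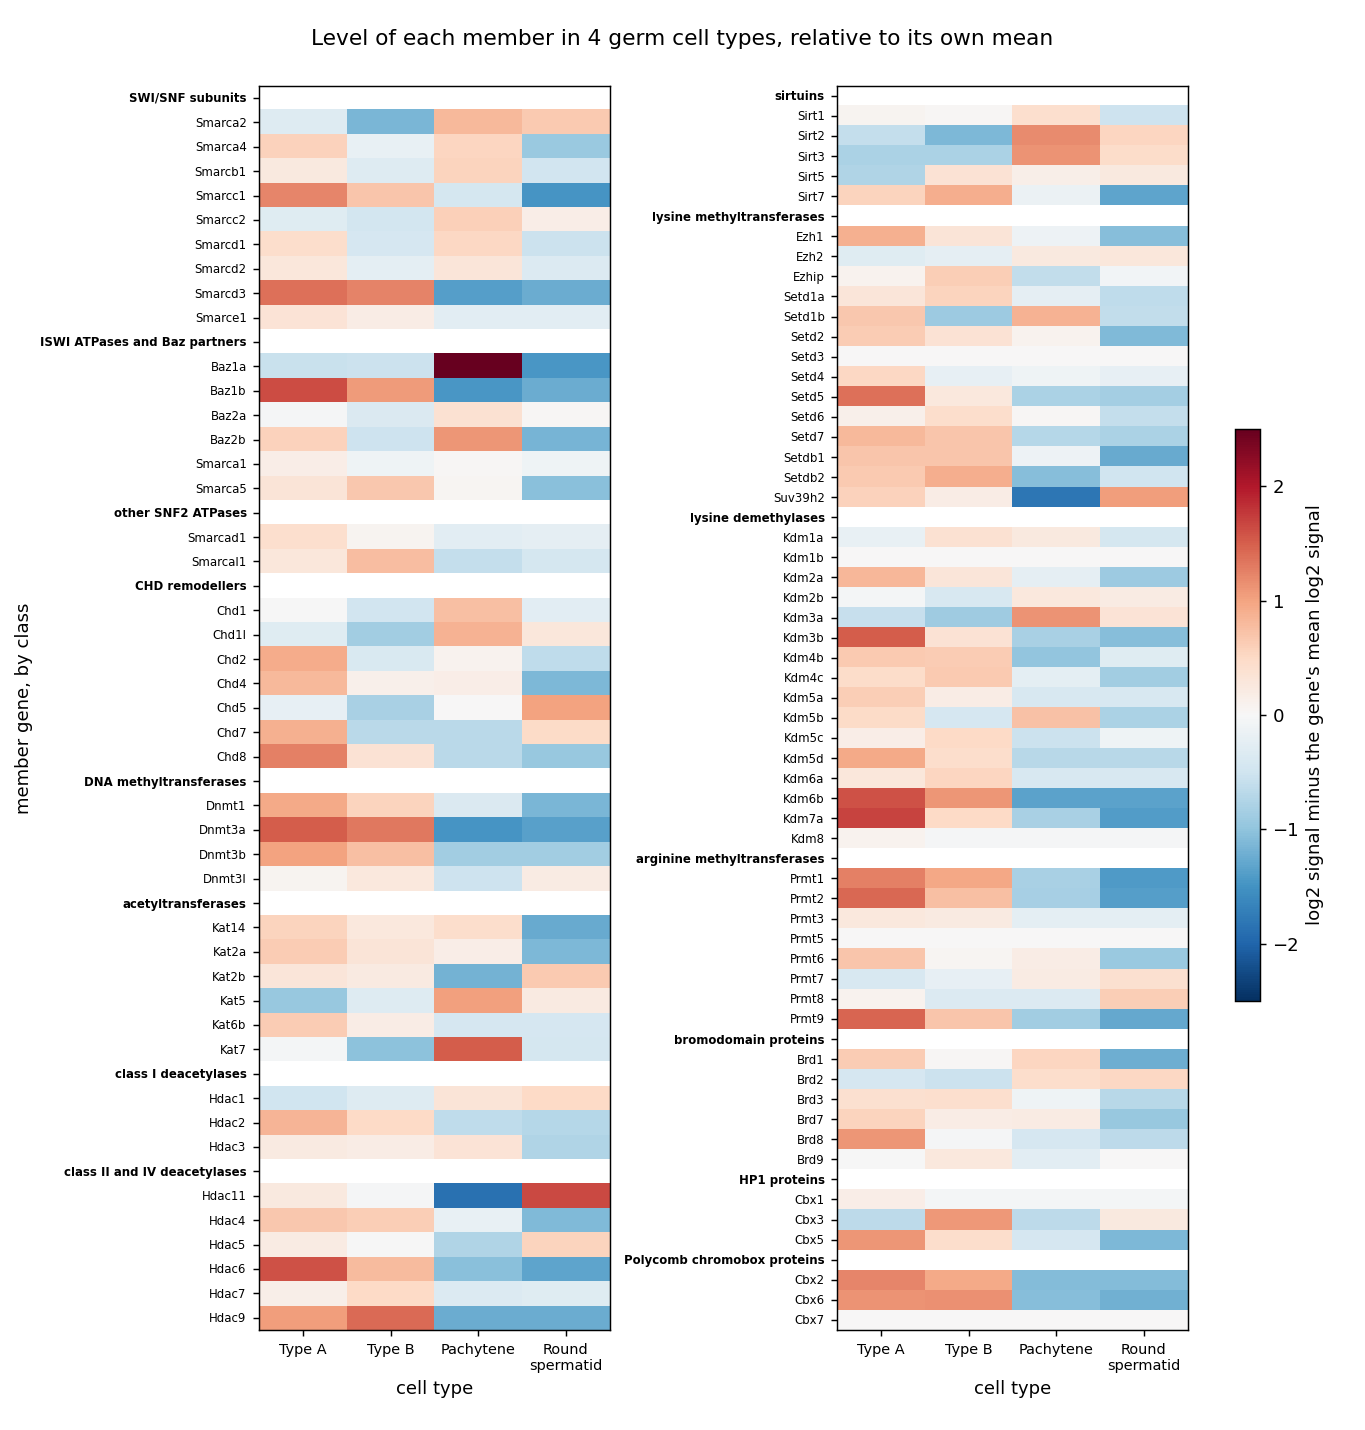
Level of each of the 98 members in the 4 cell types (columns), grouped by class (rows), as log2 signal minus the mean log2 signal of that gene, with signals under the floor set to it. Red is above and blue below the mean of the gene. The 4 members at the floor in every cell type are blank, Baz1a has its dark red cell in pachytene, and Suv39h2 and Hdac11 have their dark blue cells there.

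Between neighbouring stages, more members were lower than higher. In type B over type A, 2 members (2.04%) were higher by 2-fold or more, against 2.93% of all genes, and 8 (8.16%) were lower, against 2.95%. In pachytene over type B, 13 members (13.3%) were at least 2-fold higher, against 13.2% of all genes, and 30 (30.6%) at least 2-fold lower, against 17.9%. Of these 30, 11 are lower bounds. In round spermatids over pachytene, 5 members (5.1%) were at least 2-fold higher, against 7.39% of all genes, and 21 (21.4%) at least 2-fold lower, against 9.63%. The share of higher members was near or under that of all genes, and the share of lower members was above it at each step. Among the 13003 genes that exceeded the floor in 1 or more cell types, 21.9% were lower in pachytene over type B and 11.8% in round spermatids over pachytene. At 4-fold, 0 members were higher and 0 lower in type B over type A (0.125% and 0.132% of all genes). The counts were 4 and 7 in pachytene over type B (6.08% and 4.18%) and 2 and 2 in round spermatids over pachytene (3.13% and 1.6%).

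These splits depend on the scaling. In pachytene over type B, scaling to a common median gave 25 members higher and 17 lower, and scaling to spike-in controls gave 25 and 14, so more members were then higher than lower. All genes turned the same way, with a common median giving 19.3% higher and 9.43% lower and the spike-ins giving 21.3% and 7.4%. The member shares were 25.5% and 17.3%, and 25.5% and 14.3%. In type B over type A, spike-in scaling gave 1 member higher and 54 (55.1%) lower, against 25% of all genes lower. That scaling moved the median of all genes by -0.51 on the log2 scale and the member median to -1.10, which is -0.59 relative to all genes. In round spermatids over pachytene, quantile normalization gave 7 higher (7.14%, against 7.4% of all genes) and 13 lower (13.3%, against 8.18%). On U74Av2 alone, 1.72% of members were lower in type B over type A, against 1.28% of all genes. In pachytene over type B the lower shares there were 17.2% and 15.2%. The member median log2 ratio was -0.28 in type B over type A, -0.43 in pachytene over type B and -0.19 in round spermatids over pachytene. The median of all genes, including those at the floor throughout, was 0 at each step. Without those genes, the median of the remaining 13003 was 0, -0.21 and 0 at the same steps. When no floor was set, the medians were 0.06, -0.38 and -0.02 for all genes and -0.31, -0.58 and -0.39 for members.

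**Figure D2:**
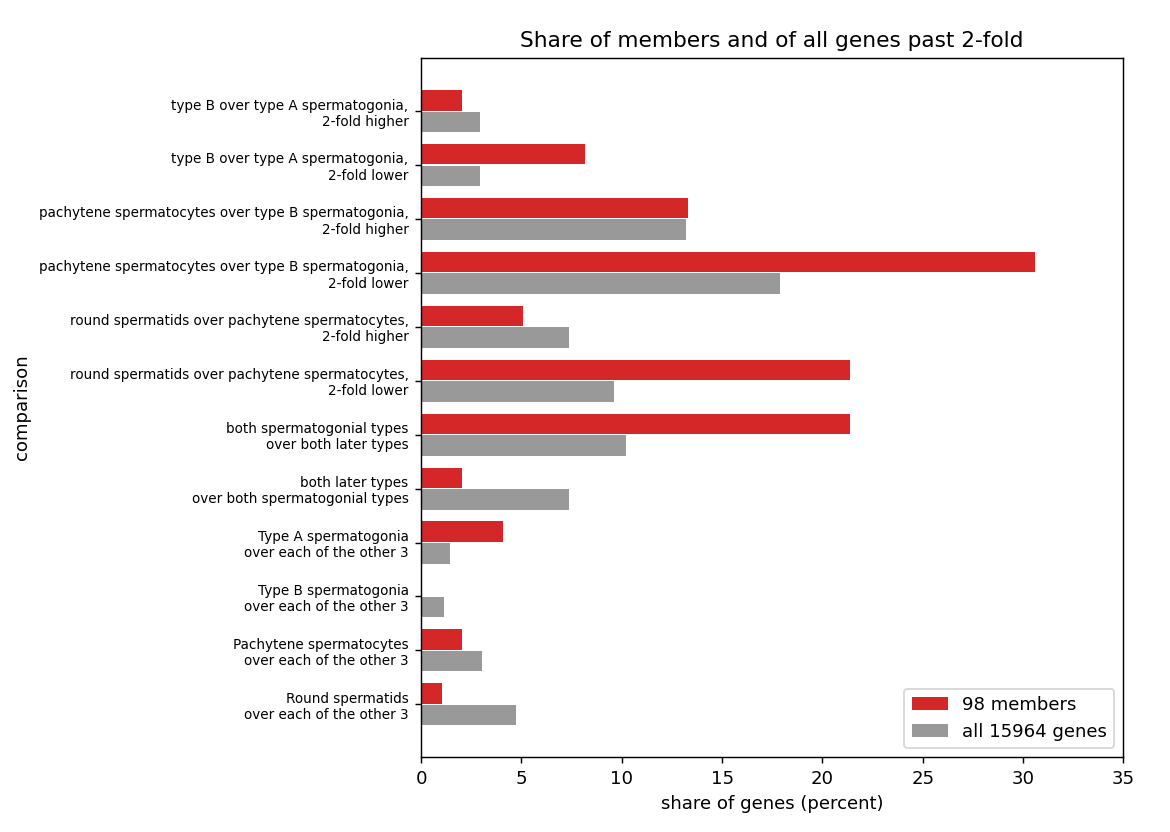
Share in percent of the 98 members (red) and of all 15964 genes (grey) that were at least 2-fold higher or lower at each step, and that were at least 2-fold over in each pattern across the 4 cell types. Members exceed all genes for lower signals at each step and for both spermatogonial types over both later types.

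Across the 4 cell types, 21 members (21.4%) were at least 2-fold higher in each spermatogonial type than in each later type, against 10.2% of all genes. They were Baz1b, Cbx2, Cbx6, Chd8, Dnmt3a, Dnmt3b, Hdac2, Hdac6, Hdac9, Kdm3b, Kdm5d, Kdm6b, Kdm7a, Prmt1, Prmt2, Prmt9, Setd5, Setd7, Setdb2, Smarcc1 and Smarcd3. The reverse pattern was met by 2 members (2.04%), Sirt2 and Sirt3, against 7.35% of all genes. Type A spermatogonia exceeded each of the other 3 cell types by at least 2-fold for 4 members (4.08%), Brd8, Kdm3b, Kdm7a and Setd5, against 1.43% of all genes. No member had this pattern in type B, against 1.13% of all genes. Baz1a and Kat7 (2.04%) had it in pachytene, against 3.03%, and Hdac11 (1.02%) in round spermatids, against 4.74%. With arrays scaled to a common median, 11 members had both spermatogonial types over both later types and 10 the reverse. Spike-in scaling gave 10 and 0, and 25 members with type A over the other 3. In pachytene over type B, 8 of 9 fibroblast markers and 5 of 7 myoid markers were at least 2-fold lower in pachytene. So were 5 of 8 leukocyte, 3 of 12 Sertoli, 1 of 5 Leydig and 1 of 4 endothelial markers. Another Leydig marker, Cyp11a1, was 2.01-fold higher. The part of somatic cells in the lower member signals was not tested.

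Promoter sequences are shown for the 7 members, among those with a RefSeq promoter, that had the largest ratios upward at the later steps. Kat7, Sirt2, Kdm3a, Smarca2 and Sirt3 had the 5 largest in pachytene over type B, and Hdac11 and Suv39h2 the 2 largest in round spermatids over pachytene. Each is the 250 bases before a RefSeq gene start in build GRCm38.p6, 5′ to 3′ on the strand of the gene. Capitals mark matches, on either strand, to TAACNG, the core bound by Myb factors, and to TGACG, part of the cyclic AMP response element.
Kat7 (chr11:95310247-95310496, minus strand): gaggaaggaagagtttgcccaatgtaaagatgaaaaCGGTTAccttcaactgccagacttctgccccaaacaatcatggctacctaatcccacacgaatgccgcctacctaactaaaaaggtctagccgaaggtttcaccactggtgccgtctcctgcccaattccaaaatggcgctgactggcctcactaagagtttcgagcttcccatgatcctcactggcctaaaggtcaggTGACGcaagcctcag
Sirt2 (chr7:28766502-28766751, plus strand): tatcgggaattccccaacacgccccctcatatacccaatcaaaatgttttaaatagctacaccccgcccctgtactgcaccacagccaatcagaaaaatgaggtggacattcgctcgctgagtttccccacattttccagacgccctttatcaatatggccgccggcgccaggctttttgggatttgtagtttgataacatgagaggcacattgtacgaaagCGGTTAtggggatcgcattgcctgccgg
Kdm3a (chr6:71632687-71632936, minus strand): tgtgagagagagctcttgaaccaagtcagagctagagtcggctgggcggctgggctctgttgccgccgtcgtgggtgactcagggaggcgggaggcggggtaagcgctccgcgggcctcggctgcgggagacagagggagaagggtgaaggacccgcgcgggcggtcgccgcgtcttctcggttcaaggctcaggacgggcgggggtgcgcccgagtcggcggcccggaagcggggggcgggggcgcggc
Smarca2 (chr19:26604910-26605159, plus strand): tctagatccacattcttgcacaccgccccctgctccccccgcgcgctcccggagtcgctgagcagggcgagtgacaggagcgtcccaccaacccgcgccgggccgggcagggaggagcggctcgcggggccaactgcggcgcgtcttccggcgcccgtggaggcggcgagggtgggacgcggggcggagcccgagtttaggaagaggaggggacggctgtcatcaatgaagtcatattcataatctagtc
Sirt3 (chr7:140882310-140882559, minus strand): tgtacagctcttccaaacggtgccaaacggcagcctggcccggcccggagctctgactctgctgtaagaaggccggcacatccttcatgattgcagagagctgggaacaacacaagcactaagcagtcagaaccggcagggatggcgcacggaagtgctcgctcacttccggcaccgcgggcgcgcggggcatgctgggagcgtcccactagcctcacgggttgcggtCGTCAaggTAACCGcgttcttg
Sirt3, other start (chr7:140881870-140882119, minus strand): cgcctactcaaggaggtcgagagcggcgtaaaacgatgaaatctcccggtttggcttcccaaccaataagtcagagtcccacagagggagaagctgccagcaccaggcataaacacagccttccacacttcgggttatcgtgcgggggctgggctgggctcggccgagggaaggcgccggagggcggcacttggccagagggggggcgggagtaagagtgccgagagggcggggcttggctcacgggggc
Hdac11 (chr6:91156565-91156814, plus strand): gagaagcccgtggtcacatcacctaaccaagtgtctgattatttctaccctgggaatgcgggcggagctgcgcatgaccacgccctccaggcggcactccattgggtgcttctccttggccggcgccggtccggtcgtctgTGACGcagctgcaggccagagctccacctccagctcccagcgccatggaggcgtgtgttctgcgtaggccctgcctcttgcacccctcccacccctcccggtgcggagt
Suv39h2 (chr2:3474987-3475236, minus strand): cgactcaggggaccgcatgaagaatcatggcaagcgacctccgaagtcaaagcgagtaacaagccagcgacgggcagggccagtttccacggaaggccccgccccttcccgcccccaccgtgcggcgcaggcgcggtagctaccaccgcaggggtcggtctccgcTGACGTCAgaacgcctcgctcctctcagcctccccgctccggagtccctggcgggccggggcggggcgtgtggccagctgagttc
Kat7 held TAACNG 214 bases and TGACG 15 bases before the start. Sirt2 held TAACNG 28 bases before it. The first Sirt3 promoter held TGACG 22 bases and TAACNG 14 bases before the start, and the other held neither. Neither motif was in the Smarca2 promoter, the Kdm3a promoter shown or the other 2 listed for Kdm3a. Hdac11 held TGACG 109 bases before the start, and Suv39h2 held a pair of overlapping TGACG matches on opposite strands, at 85 and 82 bases. A RefSeq promoter was matched for 83 of the 98 members, with 113 promoters in all. TGACG was in 28.3% of the member promoters and in 17.8% of all 32851 promoters, and TAACNG was in 13.3% and 19.8%. Member promoters held a median of 20 CG pairs (quartiles 12 and 27), against 6 (2 and 16) in all promoters. A match is a string of letters and not a bound site.

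SWI/SNF complexes pair an ATPase, Smarca2 or Smarca4, with core and accessory subunits. The 9 subunits had a median log2 ratio of -0.53 in type B over type A, 0.71 in pachytene over type B and -0.65 in round spermatids over pachytene. Smarca2, the alternative ATPase, read 298 units in type A, 168 in type B, 649.6 in pachytene and 581 in round spermatids. It was 3.87-fold higher in pachytene than in type B, and 1.12-fold lower in round spermatids than in pachytene. Its U74Bv2 probe set was 1.74-fold higher in pachytene and its U74Cv2 probe set at least 1.55-fold lower there, and with all probe sets averaged the log2 ratio was 0.70. In round spermatids over pachytene that U74Cv2 probe set was at least 2.38-fold higher. Smarca4, the main ATPase in most cells, read 1275 units in type A, 759.8 in type B, 1245 in pachytene and 452 in round spermatids. Its pachytene signal was close to that of type A, and round spermatids were 2.76-fold lower than pachytene. The 2 other Smarca4 probe sets over the floor went the same way at each step.

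The core scaffold pair differed from each other. Smarcc1, a scaffold linked to stem cell forms of the complex, read 636 units in type A, 442 in type B, 201 in pachytene and 98.8 in round spermatids. Each stage read lower than the one before it, and pachytene was 2.19-fold lower than type B. Smarcc2, its paralogue, read 422 units in type A, 376 in type B, 787 in pachytene and 584 in round spermatids. It was 2.09-fold higher in pachytene than in type B. The Smarcc1 difference was under 2-fold when arrays were scaled to a common median or to spike-in controls, and the Smarcc2 difference under quantile normalization.

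Among the accessory subunits, Smarcd3, known from heart and muscle forms of the complex, read 340.2 units in type A, 310.0 in type B, 40.3 in pachytene and 55.0 in round spermatids. In pachytene it was at least 6.20-fold lower than in type B, and 2 further probe sets went the same way. Smarcd1, its paralogue, read 173 units in type A, 95.2 in type B, 183 in pachytene and 87.6 in round spermatids. Smarcd2, the remaining paralogue, read 624 units in type A, 435 in type B, 631 in pachytene and 402 in round spermatids. The pachytene signals of Smarcd1 and Smarcd2 were 1.92-fold and 1.45-fold those of type B, where Smarcd3 was at the floor in pachytene. Smarcb1, a core subunit, read 586 units in type A, 400.4 in type B, 731 in pachytene and 357 in round spermatids. It was 2.05-fold lower in round spermatids than in pachytene. Smarce1, a DNA-binding subunit, read 75.8 units in type A, 68.4 in type B, 32.3 in pachytene and 25.6 in round spermatids, over the floor in both spermatogonial types and under it in both later ones.

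**Figure D3:**
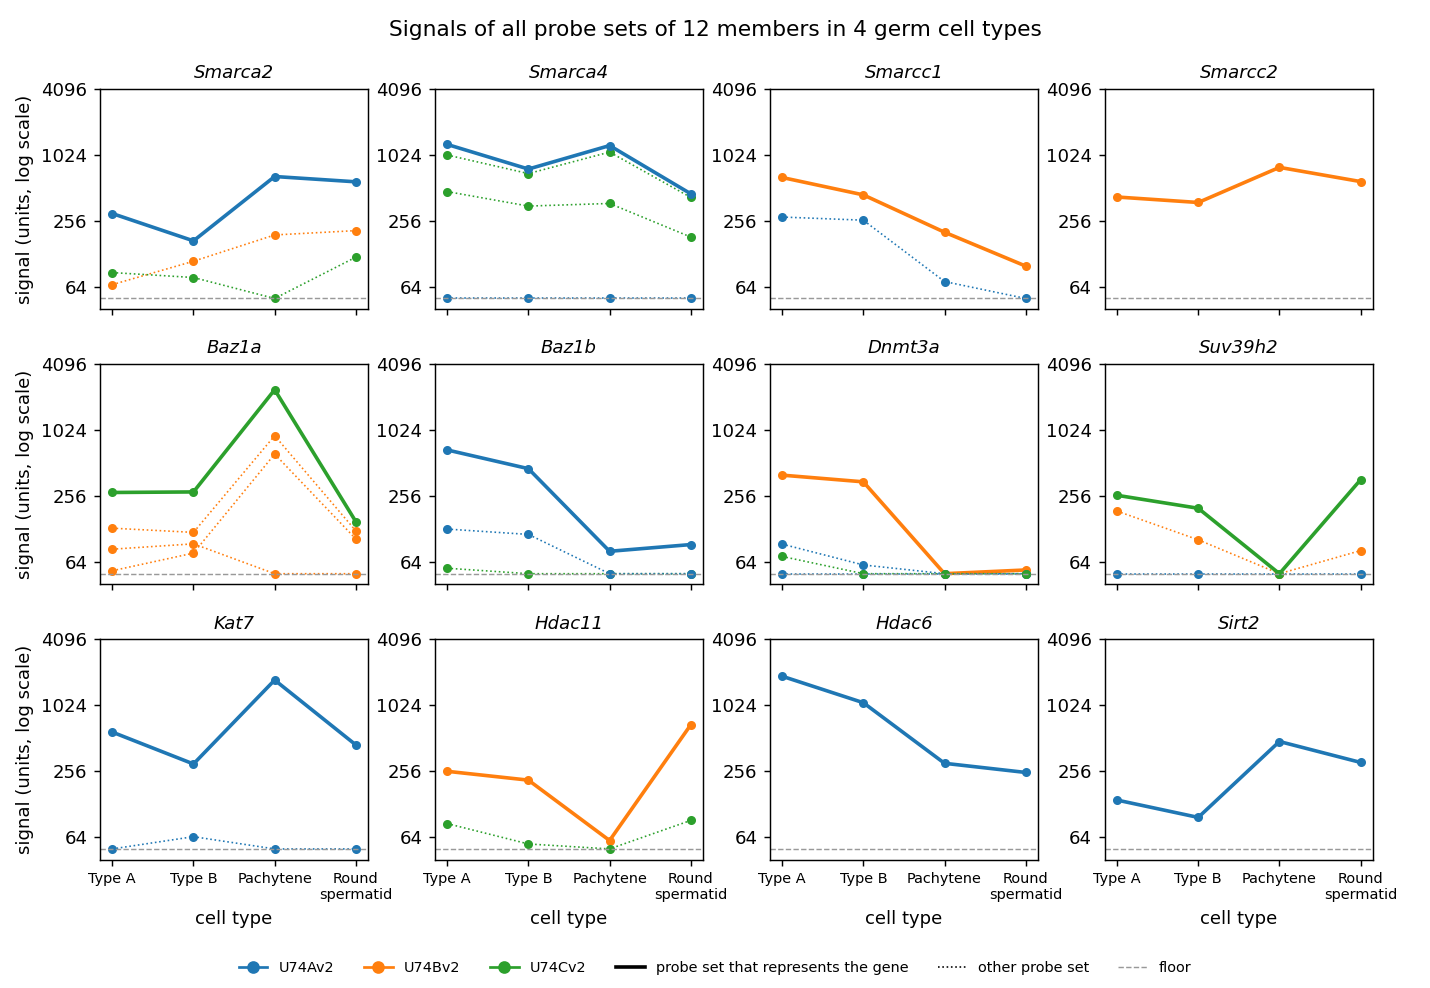
Signals of every probe set of 12 members in the 4 cell types on a log scale, with signals under the floor drawn at it. Colours mark the array design, the thick line the probe set that represents the gene, and the dashed line the floor. Baz1a peaks in pachytene in 3 of its 4 probe sets, and Suv39h2 dips there in both probe sets that were over the floor.

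The ISWI ATPases Smarca1 and Smarca5 space nucleosomes together with Baz partners. The 6 genes had a median log2 ratio of -0.31 in type B over type A, 0.44 in pachytene over type B and -0.72 in round spermatids over pachytene. Baz1a, the partner of Smarca5 in the ACF complex, read 276 units in type A, 279 in type B, 2392 in pachytene and 149 in round spermatids. Pachytene stood far above the other 3 cell types, 8.57-fold over type B, and round spermatids were 16.0-fold lower than pachytene. These were the largest measured ratios of any member at their steps in their directions. A U74Bv2 probe set of Baz1a read 910.4 units in pachytene and 119.2 in type B, and another read 618.6 and 77.1. The fourth read 44.8 units in pachytene and 93.7 in type B, so 1 of the 4 probe sets did not show the pachytene peak.

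Baz1b, the Williams syndrome factor that also pairs with Smarca5, went the opposite way to Baz1a in pachytene over type B. It read 674 units in type A, 455 in type B, 80.1 in pachytene and 92.3 in round spermatids. Pachytene was 5.68-fold lower than type B. Baz2b, a bromodomain member whose partners are ISWI ATPases, read 166 units in type A, 77.6 in type B, 239.8 in pachytene and 38.5 in round spermatids. It was 3.09-fold higher in pachytene than in type B, and at least 4.79-fold lower in round spermatids than in pachytene. With its probe sets averaged, the Baz2b log2 ratios were 0.67 and -0.88 at these steps. Smarca5, the ATPase itself, read 580.5 units in type A, 736 in type B, 479 in pachytene and 225 in round spermatids. It was highest in type B and 2.13-fold lower in round spermatids than in pachytene. Its other 2 probe sets were highest in type A and 1.19-fold and 1.41-fold lower in round spermatids than in pachytene. Baz2a, the nucleolar partner of Smarca5, read 469 units in type A, 371 in type B, 621 in pachytene and 486 in round spermatids, within 1.67-fold. Smarca1, the X-linked ISWI ATPase, read 84.8 units in type A, 70.0 in type B, 77.4 in pachytene and 70.5 in round spermatids, and its type B signal was under the highest negative control of that array. Its other 2 probe sets, with type B signals also under that control, were under the floor in both later cell types. They were at least 1.60-fold and at least 1.19-fold lower in pachytene than in type B.

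A further pair of SNF2 ATPases acts in DNA repair and replication. Smarcal1, which remodels stalled forks, read 231 units in type A, 324 in type B, 126 in pachytene and 140.1 in round spermatids. It was 2.57-fold lower in pachytene than in type B, a difference that was under 2-fold in 4 of 7 alternatives. Smarcad1, which acts in DNA end resection, read 95.7 units in type A, 75.2 in type B, 60.0 in pachytene and 61.8 in round spermatids, near the floor throughout. The median of the pair in type B over type A was 0.07 on the log2 scale, and it changed sign to -0.07 with a common median and to -0.70 with spike-in scaling.

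The 7 CHD remodellers had a median log2 ratio of -0.68 in type B over type A, the lowest of any class at that step, then 0.45 in pachytene over type B and -0.59 in round spermatids over pachytene. Chd4, the ATPase of the NuRD repressor complex, read 2849 units in type A, 1782 in type B, 1834 in pachytene and 752 in round spermatids. Round spermatids were 2.44-fold lower than pachytene, and pachytene and type B were within 1.03-fold. A U74Bv2 probe set of Chd4 read 46.4 units in type A, 243 in type B, 30.3 in pachytene and 37.8 in round spermatids, at least 4.86-fold higher in type B than in type A and at least 4.86-fold lower in pachytene than in type B. Chd1l, a remodeller recruited by poly-ADP-ribose at DNA damage, read 405 units in type A, 274 in type B, 916 in pachytene and 607 in round spermatids. It was 3.34-fold higher in pachytene than in type B, and its second probe set went the same way. In round spermatids over pachytene that second probe set was 2.67-fold lower, against 1.51-fold. Chd2, which acts at transcribed genes, read 379.8 units in type A, 154 in type B, 210.5 in pachytene and 128 in round spermatids. It was 2.46-fold lower in type B than in type A. Chd7, the CHARGE syndrome gene, read 148 units in type A, 41.6 in type B, 31.0 in pachytene and 113 in round spermatids. It was at least 2.96-fold lower in type B than in type A and at least 2.25-fold higher in round spermatids than in pachytene, with type B and pachytene both at the floor.

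Chd8, which binds beta-catenin, read 435 units in type A, 232 in type B, 114 in pachytene and 93.9 in round spermatids. It was 2.03-fold lower in pachytene than in type B, and under 2-fold in 4 of 8 alternatives. Chd5, a remodeller of brain and testis that acts in spermatid chromatin compaction in mouse, read 202 units in type A, 133 in type B, 233 in pachytene and 467 in round spermatids. It was highest in round spermatids, but its second probe set was lower there than in pachytene. Chd1, which acts in transcription elongation, read 193 units in type A, 139 in type B, 325 in pachytene and 161 in round spermatids. It was 2.35-fold higher in pachytene than in type B by the probe set with the highest signal, whereas on U74Av2 alone the log2 ratio was -0.55 and the direction reversed. Another U74Cv2 probe set was also lower in pachytene than in type B, by 1.30-fold.

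DNA methyltransferases had a median log2 ratio of -0.23 in type B over type A, -1.27 in pachytene over type B and 0.06 in round spermatids over pachytene. Dnmt1, which copies methylation after replication, read 994 units in type A, 757 in type B, 402 in pachytene and 234 in round spermatids. Each stage read lower than the one before it. Dnmt3a, a de novo enzyme that sets methylation in male germ cells, read 397 units in type A, 345 in type B, 34.9 in pachytene and 54.1 in round spermatids. Its pachytene signal was at least 6.90-fold lower than that of type B, the highest lower bound of any member at that step. Dnmt3b, the other de novo enzyme, read 185 units in type A, 155 in type B, 27.6 in pachytene and 24.3 in round spermatids. Pachytene was at least 3.09-fold lower than type B. Both de novo enzymes were at or near the floor in the 2 later cell types and over it in both spermatogonial types. On U74Av2 alone, where its signals lay near the floor, the Dnmt3a log2 ratio was -0.26. Dnmt3l, their cofactor without catalytic activity, read 543 units in type A, 625 in type B, 363 in pachytene and 601 in round spermatids. By this probe set its signals stayed within 1.72-fold. A U74Cv2 probe set was under the floor in type A, type B and pachytene and read 237.8 units in round spermatids, at least 4.75-fold over pachytene.

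The 6 acetyltransferases had a median log2 ratio of -0.31 in type B over type A, 0.01 in pachytene over type B and -1.04 in round spermatids over pachytene. Kat7, which acetylates histones at replication origins and genes, read 583 units in type A, 298 in type B, 1743 in pachytene and 445 in round spermatids. It was 5.84-fold higher in pachytene than in type B and 3.91-fold lower in round spermatids than in pachytene. Its other probe set read at most 64.7 units, in type B, and did not show the pachytene peak. Kat5, the catalytic subunit of the TIP60 complex, read 64.7 units in type A, 100.1 in type B, 255 in pachytene and 146 in round spermatids. It was 2.55-fold higher in pachytene than in type B.

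Kat2b, a coactivator acetyltransferase, read 140.4 units in type A, 133 in type B, 42.8 in pachytene and 180.1 in round spermatids. It was low in pachytene alone, at least 2.65-fold below type B, and round spermatids were at least 3.60-fold above pachytene. Kat2a, its paralogue in the SAGA complex, read 169 units in type A, 136 in type B, 121 in pachytene and 21.5 in round spermatids. Kat14, an acetyltransferase of the ATAC complex, read 241 units in type A, 195 in type B, 220.5 in pachytene and 68.2 in round spermatids. Both were lowest in round spermatids, Kat2a at least 2.43-fold and Kat14 3.23-fold below pachytene. The other Kat2a probe set went the opposite way, with 77.9 units in round spermatids and 50.8 in pachytene, and the mean over probe sets gave a log2 ratio of -0.28. Kat6b, a paralogue of the MOZ acetyltransferase, read 104 units in type A, 75.4 in type B, 41.2 in pachytene and 40.9 in round spermatids, with no 2-fold step.

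The 3 class I deacetylases, nuclear enzymes of the Sin3, NuRD and NCoR complexes, had different profiles. Hdac1 read 251 units in type A, 279.6 in type B, 438 in pachytene and 500.1 in round spermatids, higher at each stage than at the one before, with no 2-fold step. Hdac2, its paralogue in the same complexes, read 727 units in type A, 575 in type B, 261 in pachytene and 246 in round spermatids. It was 2.20-fold lower in pachytene than in type B, where Hdac1 was 1.57-fold higher. The Hdac2 difference was under 2-fold with a common median or spike-in scaling. Hdac3, the NCoR deacetylase, read 151 units in type A, 146 in type B, 165 in pachytene and 76.6 in round spermatids. It was 2.15-fold lower in round spermatids than in pachytene. The class median was -0.05 in type B over type A, 0.17 in pachytene over type B and -0.08 in round spermatids over pachytene on the log2 scale, and the last changed sign to 0.06 under quantile normalization.

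The 6 class II and IV deacetylases had a median log2 ratio of -0.14 in type B over type A, -1.33 in pachytene over type B and 0.01 in round spermatids over pachytene, which changed sign to -0.12 with spike-in scaling. Hdac11, the class IV enzyme, read 256 units in type A, 212 in type B, 59.7 in pachytene and 679.8 in round spermatids. It was lowest in pachytene, 3.56-fold below type B. Round spermatids were 11.4-fold above pachytene, the largest measured higher ratio among members at that step. Its U74Cv2 probe set read 85.2 units in type A, 55.5 in type B, 47.9 in pachytene and 91.1 in round spermatids, the same order on a lower scale. Hdac6, an X-linked cytoplasmic deacetylase of tubulin, read 1887 units in type A, 1082 in type B, 303 in pachytene and 249.7 in round spermatids. It was 3.57-fold lower in pachytene than in type B, and kept at least 2-fold in all 8 alternatives. Those that vary the choice of probe set could not alter it, as its only probe set is on U74Av2.

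Class IIa enzymes shuttle between nucleus and cytoplasm and repress Mef2 targets. Hdac9, best known from muscle, read 244 units in type A, 316 in type B, 41.6 in pachytene and 30.8 in round spermatids. In pachytene it was at least 6.31-fold lower than in type B. Hdac5, its paralogue, read 359 units in type A, 309 in type B, 184 in pachytene and 459.6 in round spermatids. It was 2.50-fold higher in round spermatids than in pachytene. Hdac4 read 170.1 units in type A, 163 in type B, 94.7 in pachytene and 41.3 in round spermatids, lower at each stage than at the one before. In round spermatids over pachytene its other probe sets split. A U74Cv2 probe set was 1.65-fold higher and a U74Bv2 probe set 1.21-fold higher, and another U74Bv2 probe set was at least 1.08-fold lower. Hdac7 read 254 units in type A, 324 in type B, 182 in pachytene and 186 in round spermatids, within 1.78-fold.

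Sirtuins remove acyl groups with NAD. The 5 genes had a median log2 ratio of 0 in type B over type A, 0.39 in pachytene over type B and -0.67 in round spermatids over pachytene. Sirt2, a mainly cytoplasmic deacetylase, read 139.7 units in type A, 97.0 in type B, 479 in pachytene and 308 in round spermatids. It was 4.93-fold higher in pachytene than in type B. Sirt3, the main mitochondrial deacetylase, read 48.4 units in type A, 42.9 in type B, 188 in pachytene and 118 in round spermatids. It was at the floor in both spermatogonial types and at least 3.77-fold higher in pachytene than in type B. These were the 2 members at least 2-fold higher in both later cell types than in both spermatogonial types. Sirt5, a mitochondrial desuccinylase, read 133 units in type A, 290.4 in type B, 249 in pachytene and 266 in round spermatids. It was 2.18-fold higher in type B than in type A and within 1.17-fold at the later steps.

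Sirt7, a nucleolar sirtuin, read 185 units in type A, 234 in type B, 113 in pachytene and 26.2 in round spermatids. It was lower at both later steps, by 2.06-fold and at least 2.27-fold. Sirt1, the nuclear founding member, read 348 units in type A, 342 in type B, 447 in pachytene and 232 in round spermatids. Its signals lay within 1.93-fold, whereas a second probe set was 2.33-fold lower in round spermatids (106 units) than in pachytene (248).

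The lysine methyltransferase class was formed by symbol and takes in Ezhip, an inhibitor of a Polycomb complex rather than a methyltransferase. Its 14 genes had a median log2 ratio of -0.05 in type B over type A, -0.61 in pachytene over type B and -0.08 in round spermatids over pachytene. In pachytene over type B, 1 was at least 2-fold higher (13.2% of all genes), and 5, Ezhip among them, were lower by 2-fold or more (17.9% of all genes). Suv39h2, which trimethylates heterochromatin histones and is enriched in mouse testis, read 259.9 units in type A, 198 in type B, 29.8 in pachytene and 361 in round spermatids. It was at the floor in pachytene, at least 3.96-fold below type B, and round spermatids were at least 7.21-fold above pachytene. A U74Bv2 probe set read 186.5 units in type A, 102.0 in type B, 5.0 in pachytene and 81.3 in round spermatids, and so was also lowest in pachytene. The U74Av2 probe set was at the floor in all 4 cell types.

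Setd5, a SET domain protein with disputed catalytic activity, read 1937 units in type A, 898 in type B, 431 in pachytene and 413 in round spermatids. It was 2.16-fold lower in type B than in type A and 2.08-fold lower in pachytene than in type B. Setd1b, an enzyme that methylates promoter histones, read 306 units in type A, 103 in type B, 350.5 in pachytene and 126 in round spermatids. It alternated, 2.97-fold lower in type B than in type A, 3.41-fold higher in pachytene than in type B and 2.79-fold lower in round spermatids than in pachytene. Its type B signal of 102.8 units lay under the highest negative control. Setd1a, its paralogue, read 458 units in type A, 541 in type B, 317 in pachytene and 238 in round spermatids, with no 2-fold step.

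The other SET genes lower in pachytene included Setdb2, related to the repressive enzyme Setdb1. Setdb2 read 536 units in type A, 641 in type B, 165 in pachytene and 243 in round spermatids. It was 3.89-fold lower in pachytene than in type B. Setd7, a monomethyltransferase, read 151 units in type A, 140.3 in type B, 52.3 in pachytene and 28.0 in round spermatids. It was 2.68-fold lower in pachytene than in type B, and under 2-fold in 4 of 7 alternatives. Setdb1, which silences retroelements and acts on the sex chromosomes in mouse meiosis, read 591 units in type A, 596 in type B, 335 in pachytene and 154 in round spermatids. Setd2, which methylates histones in gene bodies, read 658 units in type A, 542 in type B, 449 in pachytene and 198 in round spermatids. Both were lowest in round spermatids, Setdb1 2.18-fold and Setd2 2.27-fold below pachytene, and both were under 2-fold with quantile normalization.

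Polycomb repressive complex 2 carries Ezh1 or Ezh2 as its enzyme. Ezh2, the main form, read 220.2 units in type A, 234 in type B, 323 in pachytene and 332 in round spermatids, within 1.51-fold. Ezh1, its paralogue, read 224 units in type A, 152 in type B, 111 in pachytene and 58.0 in round spermatids, lower at each stage than at the one before. Ezhip, an X-linked inhibitor of that complex, read 456 units in type A, 658 in type B, 279.7 in pachytene and 410.3 in round spermatids. It was 2.35-fold lower in pachytene than in type B, and under 2-fold with a common median or spike-in scaling. Setd6 read 82.7 units in type A, 104 in type B, 77.7 in pachytene and 45.9 in round spermatids, and Setd4 read at most 82.7 units, in type A. Setd3 was at the floor in all 4 cell types.

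The 16 lysine demethylases had a median log2 ratio of -0.34 in type B over type A, -0.75 in pachytene over type B and -0.03 in round spermatids over pachytene. In pachytene over type B, 2 were at least 2-fold higher, and 6 were lower by 2-fold or more, against the same 13.2% and 17.9% of all genes. Kdm3a, which acts on repressive methylation and is needed for protamine gene expression in mouse spermatids, read 292 units in type A, 235 in type B, 944 in pachytene and 555 in round spermatids. It was 4.02-fold higher in pachytene than in type B, and its paralogue was not. Kdm3b read 390.1 units in type A, 174 in type B, 77.6 in pachytene and 64.5 in round spermatids. It was 2.24-fold lower in type B than in type A and 2.24-fold lower in pachytene than in type B. A U74Bv2 probe set of Kdm3b was 1.23-fold higher in type B than in type A.

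Kdm5 enzymes remove promoter methylation marks. Kdm5b, an autosomal form known from stem cells and tumours, read 1505 units in type A, 809 in type B, 1817 in pachytene and 629.9 in round spermatids. It was 2.25-fold higher in pachytene than in type B and 2.88-fold lower in round spermatids than in pachytene. A U74Cv2 probe set went the opposite way, with 205 units in pachytene and 477 in type B, and 264 in round spermatids. The X-linked Kdm5c read 481 units in type A, 608 in type B, 296 in pachytene and 400.0 in round spermatids. The Y-linked Kdm5d read 155 units in type A, 109 in type B, 16.4 in pachytene and 16.1 in round spermatids. Both were at least 2-fold lower in pachytene than in type B, by 2.05-fold and at least 2.18-fold. Kdm5d kept at least 2-fold in 1 of 8 alternatives. Kdm5a read 102 units in type A, 75.6 in type B, 46.5 in pachytene and 43.3 in round spermatids, under the floor in both later cell types.

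Kdm6b, which removes the Polycomb mark, read 385 units in type A, 272 in type B, 15.4 in pachytene and 31.1 in round spermatids. Its pachytene signal was at least 5.44-fold lower than that of type B. Its X-linked paralogue Kdm6a read 80.1 units in type A, 95.7 in type B, 10.8 in pachytene and 25.4 in round spermatids. Kdm7a, which removes repressive methylation, read 1077 units in type A, 472 in type B, 190.5 in pachytene and 127 in round spermatids. It was lower at each stage than at the one before, with the largest step in pachytene, 2.48-fold below type B, and 2.28-fold lower in type B than in type A. Another probe set was level between pachytene (57.7 units) and type B (56.7). Kdm4b, a demethylase of heterochromatin marks, read 157 units in type A, 155 in type B, 18.6 in pachytene and 81.4 in round spermatids. Pachytene was at least 3.10-fold lower than type B. Kdm4c, its paralogue, read 167 units in type A, 192 in type B, 102 in pachytene and 66.1 in round spermatids, with no 2-fold step.

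Kdm2a read 662 units in type A, 457 in type B, 317 in pachytene and 196 in round spermatids, and Kdm2b read 405 units in type A, 315 in type B, 500.5 in pachytene and 479 in round spermatids. These CpG island binding paralogues went opposite ways in pachytene over type B, Kdm2a 1.44-fold lower and Kdm2b 1.59-fold higher. The other 2 Kdm2a probe sets were 2.17-fold and at least 4.06-fold lower in pachytene than in type B. Kdm1a, the founding lysine demethylase, read at most 88.0 units, in type B, and Kdm8 at most 54.0 units, in type A. Kdm1b was at the floor in every cell type.

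The 8 arginine methyltransferases had a median log2 ratio of -0.36 in type B over type A, -0.23 in pachytene over type B and -0.20 in round spermatids over pachytene. Prmt1, the main asymmetric arginine methyltransferase, read 810.0 units in type A, 666 in type B, 195 in pachytene and 127 in round spermatids. It was 3.41-fold lower in pachytene than in type B. Prmt2, a coactivator of nuclear receptors, read 916 units in type A, 569 in type B, 190.0 in pachytene and 129.6 in round spermatids. It was 3.0-fold lower in pachytene than in type B. Prmt9, which methylates a splicing factor, read 330.2 units in type A, 194 in type B, 66.0 in pachytene and 32.8 in round spermatids. It was 2.94-fold lower in pachytene than in type B. All 3 were lower at each stage than at the one before. Prmt7, which makes monomethylarginine, went the other way. It read 267 units in type A, 306 in type B, 409.6 in pachytene and 463 in round spermatids, with no 2-fold step. Prmt6 read 154 units in type A, 98.4 in type B, 107 in pachytene and 11.9 in round spermatids, so that round spermatids were at least 2.14-fold lower than pachytene. Prmt3 and Prmt8 read at most 97.4 units, and Prmt5 was at the floor in all 4 cell types.

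Bromodomain proteins read acetylated histones. The 6 genes had a median log2 ratio of -0.24 in type B over type A, -0.19 in pachytene over type B and -0.40 in round spermatids over pachytene. The median for pachytene over type B changed sign to 0.30 with a common median and to 0.58 with spike-in scaling. Brd3, a BET protein, read 2095 units in type A, 2119 in type B, 1467 in pachytene and 978 in round spermatids. No step reached 2-fold by this probe set. A U74Bv2 probe set of Brd3 was 2.60-fold lower in pachytene than in type B and 2.27-fold higher in round spermatids than in pachytene. Brd1, a scaffold of Kat7 complexes, read 527 units in type A, 346 in type B, 494 in pachytene and 145 in round spermatids. It was 3.40-fold lower in round spermatids than in pachytene, and a U74Av2 probe set was 2.37-fold higher in pachytene than in type B. Brd7, a subunit of the PBAF form of SWI/SNF, read 439.9 units in type A, 339 in type B, 342 in pachytene and 153 in round spermatids. It was 2.23-fold lower in round spermatids than in pachytene. Brd8, a subunit of the TIP60 complex, read 329.6 units in type A, 151 in type B, 115 in pachytene and 98.3 in round spermatids. It was 2.18-fold lower in type B than in type A. All 3 other Brd8 probe sets were higher in pachytene than in type B, 1 of them by at least 2.20-fold, where this one was 1.32-fold lower. Brd2, another BET protein, read 120.1 units in type A, 111 in type B, 217 in pachytene and 230.4 in round spermatids, and was higher in both later cell types than in both spermatogonial types by under 2-fold at each step. Brd9, of the noncanonical SWI/SNF complex, read 107 units in type A, 129.9 in type B, 89.6 in pachytene and 109 in round spermatids, within 1.45-fold.

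Chromobox proteins read methylated histones, the HP1 group in heterochromatin and the Polycomb group in Polycomb domains. Cbx5, the HP1 alpha protein, read 536 units in type A, 336 in type B, 187 in pachytene and 115 in round spermatids. It was lower at each stage than at the one before, although its 4 other probe sets split, 2 lower and 2 higher in pachytene than in type B. Cbx3, HP1 gamma, read 23.7 units in type A, 167 in type B, 19.2 in pachytene and 93.9 in round spermatids. It was at least 3.35-fold higher in type B than in type A and at least 3.35-fold lower in pachytene than in type B. Cbx1, HP1 beta, was over the floor in type A alone, at 58.5 units. Cbx2, a Polycomb reader needed for male sex determination in mouse, read 247 units in type A, 205 in type B, 14.4 in pachytene and 18.8 in round spermatids. In pachytene it was at least 4.09-fold lower than in type B. Cbx6, another Polycomb reader, read 253 units in type A, 255 in type B, 54.9 in pachytene and 29.3 in round spermatids. It was 4.65-fold lower in pachytene than in type B, and its other 3 probe sets went the same way. Cbx7 was at the floor in all 4 cell types, and the class median was -2.03 on the log2 scale in pachytene over type B.

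**Figure D4:**
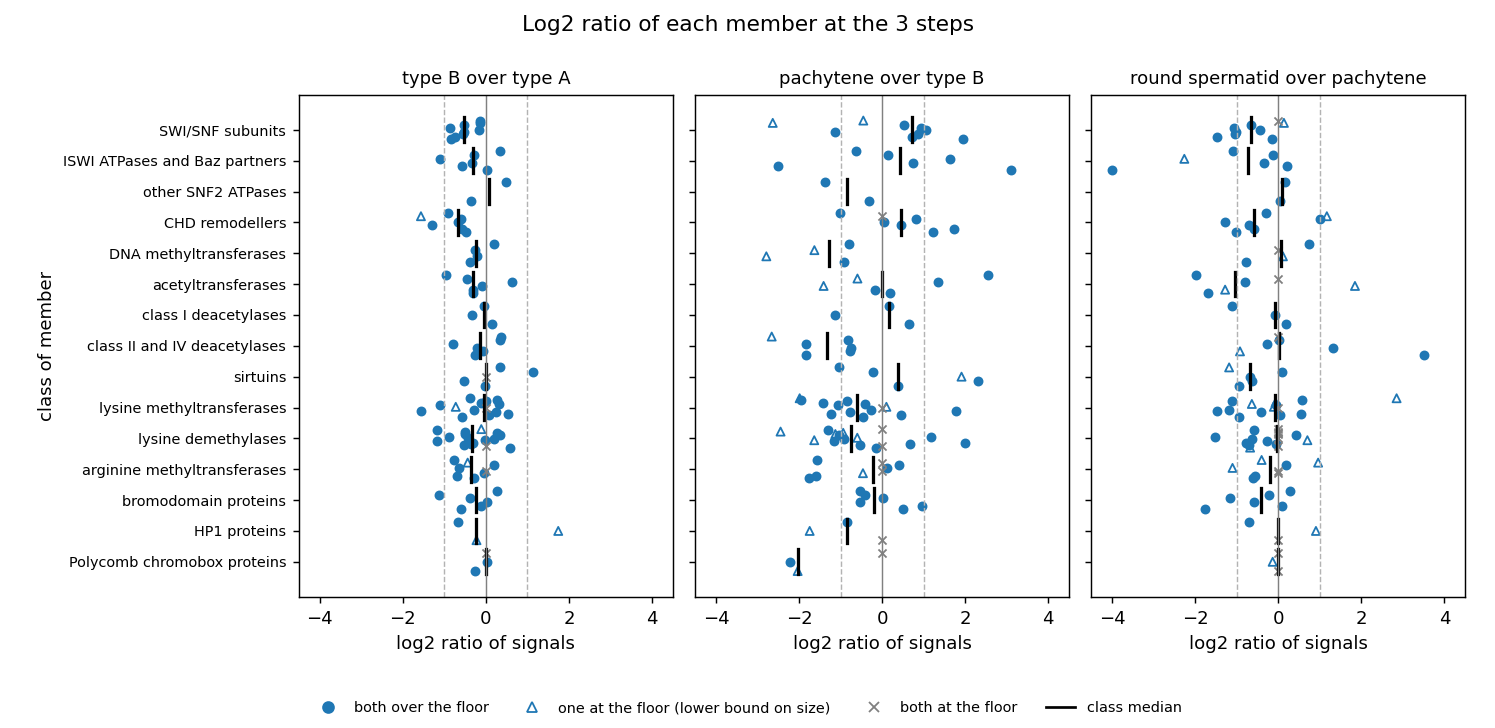
Log2 ratio of signals of each member at the 3 steps, by class. Filled circles have both cell types over the floor, triangles have 1 at the floor and are lower bounds on the size, crosses have both at the floor, and the black bar is the class median. Dashed lines mark 2-fold, and Baz1a lies farthest right in pachytene over type B and farthest left in round spermatids over pachytene.

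Sex chromosome genes are silenced in pachytene cells. The 5 X-linked members, Hdac6, Kdm5c, Kdm6a, Smarca1 and Ezhip, had a median log2 ratio of -1.04 in pachytene over type B, and 3 of them were at least 2-fold lower. The 92 autosomal members had a median of -0.36 at that step, with 26 at least 2-fold lower. All 515 X-linked genes on the arrays had a median of -0.53, with 196 at least 2-fold lower. In round spermatids over pachytene the X-linked members had a median of 0, the value of Kdm6a, which was at the floor in both cell types. Hdac6 and Smarca1 were lower and Kdm5c and Ezhip higher at that step, each by under 2-fold. Of all 515 X-linked genes, 62 were at least 2-fold higher there and 21 at least 2-fold lower.

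Repeats within the arrays bear on the precision. At the 3 steps, 18 of 115, 32 of 109 and 22 of 78 pairs of probe sets of a member gave ratios more than 2-fold apart, which is 15.7%, 29.4% and 28.2% of pairs. Over all genes the shares were 17.9%, 35.3% and 30%. Of the called members that had another probe set over the floor at that step, the other probe set repeated 2-fold in the same direction in 1 of 5 in type B over type A, 10 of 22 in pachytene over type B and 5 of 15 in round spermatids over pachytene. Averaging probe sets could not change the ratios of the 36 members with 1 probe set. Of the 79 member ratios of at least 2-fold, 24 kept 2-fold in every alternative that gave a value, 23 were under it in 1 alternative and 32 in more than 1. Those 32 were Baz2b, Brd8 and Chd7 in type B over type A, Chd1, Chd8, Dnmt3a, Ezhip, Hdac2, Kat2b, Kdm3b, Kdm5b, Kdm5c, Kdm5d, Kdm7a, Prmt9, Setd5, Setd7, Sirt7, Smarcal1, Smarcc1 and Suv39h2 in pachytene over type B, and Brd7, Chd1, Chd4, Chd7, Hdac3, Kat2a, Prmt6, Setdb1, Smarca5, Smarcc1 and Smarcd1 in round spermatids over pachytene.

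Partner genes that the symbol rule does not take were read in the same way, from a list of 126 genes of which 110 were on the arrays and 104 over the floor. In type B over type A, 0 partners were higher and 8 (7.27%) lower by 2-fold or more, against 2.93% and 2.95% of all genes. In pachytene over type B, 18 (16.4%) were higher and 24 (21.8%) lower, near the 13.2% and 17.9% of all genes. In round spermatids over pachytene 8 (7.27%) were higher and 19 (17.3%) lower, against 7.39% and 9.63%. Among Polycomb partners, Pcgf6, a subunit of the repressive complex that silences germline genes, read 228 units in type A, 144 in type B, 1931 in pachytene and 363 in round spermatids. It was 13.4-fold higher in pachytene than in type B. Rbbp7, an X-linked histone binding subunit of several complexes, read 1777 units in type A, 1752 in type B, 268 in pachytene and 256 in round spermatids. It was 6.54-fold lower in pachytene than in type B. Among remodeller partners, Arid2, the defining subunit of PBAF, read 434 units in type A, 257 in type B, 2841 in pachytene and 1401 in round spermatids. It was 11.1-fold higher in pachytene than in type B.

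Among readers, Brdt, the testis bromodomain protein, read 158 units in type A, 40.9 in type B, 3295 in pachytene and 2432 in round spermatids. It was at least 65.9-fold higher in pachytene than in type B, where its signal was under the floor. Cdyl, a chromodomain protein that acts in mouse spermatids, read 57.3 units in type A, 72.1 in type B, 66.6 in pachytene and 1134 in round spermatids. It was 17.0-fold higher in round spermatids than in pachytene. Among acetyltransferase partners, Tada3, an adaptor of the SAGA and ATAC complexes, read 55.7 units in type A, 47.3 in type B, 706 in pachytene and 539 in round spermatids. It was at least 14.1-fold higher in pachytene than in type B. Hat1, which acetylates new histones, read 319.6 units in type A, 303 in type B, 39.0 in pachytene and 208 in round spermatids. It was low in pachytene alone. Hells, a remodeller needed for DNA methylation, read 772 units in type A, 645 in type B, 66.4 in pachytene and 103 in round spermatids. It was 9.72-fold lower in pachytene than in type B, the same direction as Dnmt3a and Dnmt3b. Of the 9 DNA methylation readers and cofactors on the arrays, 4 were at least 2-fold lower at that step (17.9% of all genes). Uhrf1 went the other way, 2.20-fold higher in pachytene than in type B.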

How the data were processed

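Affymetrix one-cycle labelling was used, per the labels, on total RNA of 4 germ cell types, each read on 3 array designs. The deposited values are linear intensity signals per probe set. They were computed in MAS5, according to the submitters' processing notes. Its version and settings were not given in the sources used here. Their 2% trimmed mean was between 125 and 125.1 on every array. Within a design, arrays were brought to the geometric mean of their trimmed means, a floor was set at 0.4 of it (50.01 to 50.03 units), and log2 was taken. Of 228 negative control readings, 22 exceeded the floor. The signal over this background stands in for depth.

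Gene names come from the platform annotation, with symbols updated by Entrez identifier to RefSeq assembly GRCm38.p6, used for names and chromosomes. Of the probe sets, 5 with several symbols, 1 of them matching, were left out. All 12 arrays entered, grouped by cell type. No sample has a replicate, so no test was run, and steps were described by ratios and by counts past 2-fold and 4-fold. The members, the lists, the partner genes and the markers were chosen with earlier results of these data known, and the number of promoters shown was chosen after the values were seen. Members given with all 4 signals include, per class, the one with the highest mean signal, those with a range of at least 4-fold and at least 2 floors in the highest cell type, and the 8 with the largest ratio per step and direction. Others are named to account for every member. Partner genes were named after their values were seen. Alternatives were common-median, spike-in and quantile scaling, a floor of 0.8, no floor, the mean over probe sets, probe sets with special endings left out, U74Av2 alone and a 4-fold threshold. The ratio step was tested on simulated data. Python 3.11.15, numpy 2.4.6, pandas 2.3.3, scipy 1.17.1 and matplotlib 3.10.9 were used.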

Additional observations from a re-analysis of the deposited data

How the results depend on the processing

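Counts are given as members higher and lower by 2-fold or more, with B/A for type B over type A, P/B for pachytene over type B and R/P for round spermatids over pachytene. Scaling to a common median gave 25 higher and 17 lower in P/B with a median log2 ratio of 0.00, 11 members with both spermatogonial types over both later types, 10 with the reverse and 4 with pachytene over the other 3. Spike-in scaling gave 1 and 54 in B/A with a median of -1.10, 25 and 14 in P/B with a median of 0.00, 8 higher in R/P, and 10, 0 and 25 members with both spermatogonial types over the later types, the reverse and type A over the other 3. With spike-ins, the 8 higher in R/P were 8.16% of members, against 8.05% of all genes. Quantile normalization gave a P/B median of -0.15 and 13 lower in R/P (13.3%, against 8.18% of all genes). The higher floor gave 1 higher in B/A (1.02%, against 1.19% of all genes) and a P/B median of -0.02 (-0.0245). It gave 3 higher in R/P (3.06%, against 5.37%) and 1 member with both later types over both spermatogonial types. No floor gave 12 higher in R/P (12.2%, against 15.4% of all genes). The mean over probe sets gave 2 lower in B/A (2.04%, against 1.47% of all genes) and 11 lower in R/P (11.2%, against 6.01%). It left 0 members with type A over the other 3. U74Av2 alone, with 58 members, gave 0 and 1 in B/A, 8 and 10 in P/B with a median of 0.00, and 2 and 12 in R/P. It left 9, 1 and 0 members with the spermatogonial, type A and round spermatid patterns. The lower shares there were 1.72%, 17.2% and 20.7% of members, against 1.28%, 15.2% and 7.27% of all genes. The higher shares were 0%, 13.8% and 3.45%, against 1.91%, 10.8% and 5.08%. A 4-fold threshold, stricter by construction, left 0 and 0 in B/A, 4 and 7 in P/B and 2 and 2 in R/P. The cause of the other changes was not tested. Chd1 in P/B reversed to -0.55 on U74Av2 alone. Of 2580 values of classes and single genes, with that one included, 1897 stayed within the spread of control probe sets and 682 moved. Averaging could not move the ratios of the 36 members with 1 probe set, so the first count does not measure stability. No paired analysis was possible because each cell type had 1 array per design. Signals near the highest negative control of their own array limit what low members can show, and no difference has a biological replicate.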
